A study of Mus musculus with 5 samples.

Results

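The wild-type baseline of the newborn mouse sciatic nerve was described from 3 of the 5 samples of the study, taken as all samples whose title marks them as wild type. Each sample was 1 pool of 12 sciatic nerves, excised from pups at postnatal day 2, with the genotype Ebf2+/+ on a C57Bl6N background. The pups came from crosses of parents heterozygous for Ebf2. The pools carry the numbers 1, 9 and 11 in their titles. The other 2 samples, pools of Ebf2-/- nerves of the same age and background, were not compared here. The sources used here do not give the number of animals and litters behind a pool or the sex of the pups, and nothing says that the pools are independent in litter or day, so their spread may be technical in part.

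A peripheral nerve holds axons whose cell bodies lie outside it, in ganglia and spinal cord, and Schwann cells that line them. Around birth some Schwann cells settle on single large axons, switch on the transcription factor Egr2 under the control of Sox10 and Pou3f1, and begin to wrap myelin. Fibroblasts fill the space between the fibres, a perineurial sheath surrounds each bundle, and blood vessels with endothelium and mural cells run through both. Muscle and skin lie close to the nerve and are not part of it.

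Each pool was measured on 1 Affymetrix whole-transcript array, and the values are log2 expression values made with RMA, so a difference of 1 is 2-fold. The table gave values for 9407 genes with 1 symbol, with a median level of 9.13 over the means of the 3 pools. A level depends on the probes of a gene as well as on its RNA, so the order of levels between genes is a description of the array signal, not of molecule numbers. The signal of genes that a nerve is not known to use was taken from 287 odorant and vomeronasal receptor genes, which had a median of 5.50 and a 95th percentile of 7.37. Of all genes, 80.6% lay above that 95th percentile. With 1 group of 3 arrays no difference was tested, and n is 3 pools for every SD (standard deviation) below.

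The 3 pools resembled each other over most genes. The range of a gene, its highest minus its lowest pool, had a median of 0.25, and it reached 1 in 210 genes, or 2.23%. Every probe set showed a least spread of 0.175 between the lowest and fourth-ranked of all 5 arrays. Genes that vary little may thus be missing, and shares here refer to this table. Pool 9 stood above pool 1 by at least 1 in 1.51% of genes, pool 11 above pool 1 in 0.989%, pool 1 above pool 9 in 0.393%, pool 1 above pool 11 in 0.383%, pool 9 above pool 11 in 0.34% and pool 11 above pool 9 in 0.0638%. A range of at least 1.5-fold was found in 8.99% of genes. Pool 1 alone lay below both others by at least 1 in 0.893% of genes and alone above them in 0.244%, pool 9 alone lay above in 0.276% and below in 0.0213%, and pool 11 alone lay above in 0.0106% and below in 0. Pools 1, 9 and 11 were strictly highest in 41.1%, 32.6% and 20.1% of genes and strictly lowest in 33.5%, 28.5% and 30.4%. Across genes, which are not independent replicates, Pearson's r was 0.981 between pools 1 and 9, 0.986 between pools 1 and 11 and 0.992 between pools 9 and 11. Small differences followed the level. In the 2352 genes with the lowest levels pool 1 was the lowest in 62.5%, and in the 2352 with the highest levels it was the highest in 57.8%. The values of pool 1 were also the most spread out over probe sets (SD 1.89, against 1.82 in each of pools 9 and 11). Counts of which pool was highest are therefore given also after quantile normalisation of the 3 arrays where they differ. After it, pools 1, 9 and 11 were strictly highest in 3533, 2984 and 2860 of the 9407 genes. They were strictly lowest in 3505, 3415 and 2461.

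**Figure D1:**
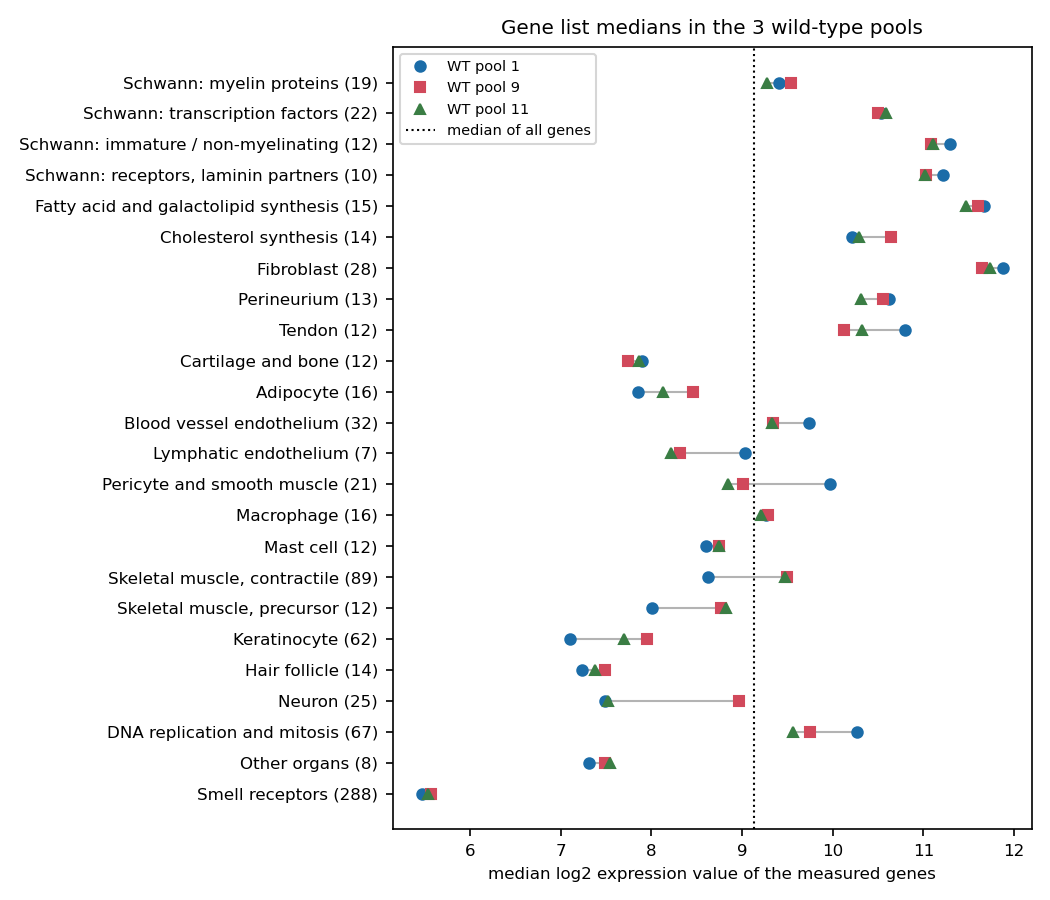
Median log2 expression value (x axis) of the measured genes of each list (y axis, number of genes in brackets) in WT pools 1, 9 and 11, with the median over all genes, 9.13, as a dotted line. Fibroblast, Schwann cell and lipid lists lay to the right of the line in every pool, while the muscle, skin, neuron and smooth muscle lists had the widest gaps between pools.

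Genes of the Schwann cell lineage gave high signals: the 63 measured in 4 lists had a median level of 10.60, above the 9.13 of all genes. Their spread was like that of the table, with a median range of 0.30 against 0.25 and an SD below 0.1 in 18 of 63, against 29.2% of all genes. Sox10, the transcription factor that defines the lineage, read 11.65, 11.64 and 11.65 in pools 1, 9 and 11 (mean 11.65 ± 0.01), a range of 0.02. Egr2, the zinc finger factor required for myelination, read 11.19, 11.53 and 11.40 (11.37 ± 0.17). Pou3f1, a POU factor of the promyelinating stage, read 11.61, 11.79 and 11.68. In both Egr2 and Pou3f1 pool 1 was the lowest and pool 9 the highest, by 0.34 and 0.18.

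Ebf2, the early B cell factor whose loss the study examined, read 11.55, 11.14 and 11.40 (11.36 ± 0.21), with pool 9 the lowest. Its relatives were present as well, Ebf1 at a mean of 11.3 and Ebf3 at 9.99, and all 5 measured members of the family and its zinc finger partners were highest in pool 1, or 4 of 5 after quantile normalisation. Over all genes pool 1 was the highest in 41.1%, or in 37.6% after quantile normalisation. Sox2, which keeps Schwann cells immature, was likewise lowest in pool 9 (11.68, 11.16 and 11.62), while Id2, which blocks DNA binding by helix-loop-helix factors, read 13.25, 13.30 and 13.21.

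Of 28 transcription factors and cofactors listed for Schwann cells 22 were measured, with a median level of 10.53. Of these 21 lay above the receptor genes' 95th percentile, against 80.6% of all genes. The exception was Tfap2a, a factor of early neural crest precursors, at 7.15 ± 0.26. A single member, Hey2, had a range of at least 1. Hey2 is a Notch target that also marks arterial cells, and it read 8.79, 7.72 and 6.78, so its place in a Schwann cell list does not say which cells gave the signal.

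Myelin and Schwann membrane genes ran from near the background to the top of the array signal. Of 31 listed genes 19 were measured, with a median level of 9.25, close to the median of all genes. All 19 lay above the receptor genes' 95th percentile, as did 80.6% of all genes. Mbp, for myelin basic protein of compact myelin, read 12.76, 12.83 and 12.78 (12.79 ± 0.04). Cnp, an enzyme of the myelin membrane, had a mean of 13.50 ± 0.09, and Gjc3, a connexin of myelinating glia, had a mean of 13.66 ± 0.11. The low end of the list held genes of contacts between axon and Schwann cell, with Cntn2 at 7.66 ± 0.34 and Cntnap1, for the axonal protein Caspr, at 7.50 ± 0.21. The remaining 12 listed genes were not analysed here.

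Differences between pools were larger in myelin genes than over the table, with a median range of 0.46 against 0.25, and most had one direction. Pool 9 was the highest in 17 of 19 (32.6% of all genes) and pool 1 the lowest in 14 (33.5% of all genes). After quantile normalisation these counts were 16 and 16, against 2984 and 3505 of all 9407 genes. Cldn19, a claudin that seals Schwann cell membranes, read 11.87, 12.42 and 12.16 (12.15 ± 0.28). Pmp2, a lipid carrier of myelin in peripheral nerve, had the largest range of the list and read 11.52, 12.31 and 11.67, a 1.72-fold difference between pools 9 and 1. Mag, an adhesion molecule facing the axon, read 11.38, 11.94 and 11.51. The range reached 1.5-fold in 4 of 19, against 8.99% of all genes, and 1 in 0 of 19, against 2.23%.

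**Figure D2:**
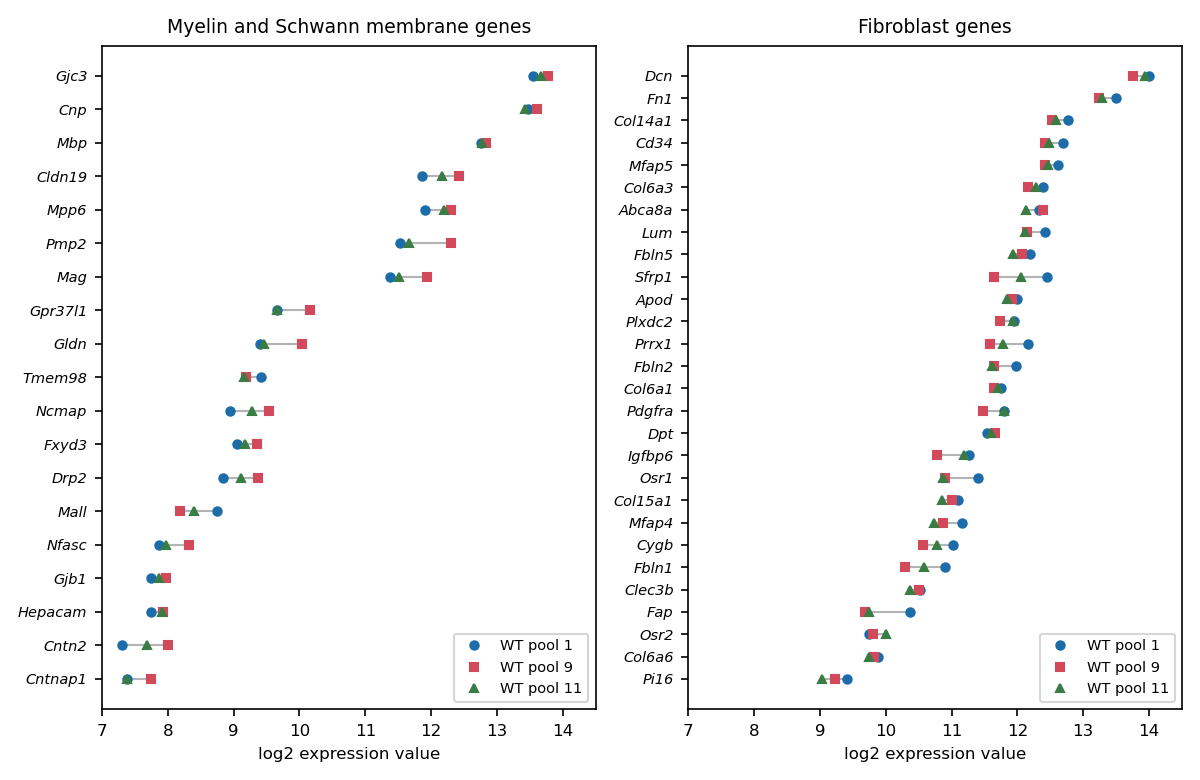
Log2 expression values (x axis) of each measured myelin and Schwann membrane gene (left) and each fibroblast gene (right) in WT pools 1, 9 and 11. Grey lines span the 3 pools, and all spans are shorter than 1. Pool 9 lies at the right end of most myelin genes, and pool 1 at the right end of most fibroblast genes.

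Receptors and laminin partners of Schwann cells were the most even of the lists for these cells. The 10 measured of 24 had a median level of 11.09 and a median range of 0.16, and 6 of them had an SD below 0.1, as did 29.2% of all genes. Erbb3, the neuregulin receptor, read 12.66, 12.75 and 12.66, and its partner Erbb2 read 11.24, 11.11 and 11.15. Adgrg6, the adhesion G protein-coupled receptor that starts myelination, read 12.09, 11.98 and 11.98. Lamc1, a laminin chain of the Schwann cell basal lamina, read 13.43, 13.25 and 13.30.

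Genes known from Schwann cells before or without myelin had a median level of 11.15 over 12 measured of 25. Cdh19, a cadherin of Schwann cell precursors, read 12.06, 12.18 and 12.18. Dhh, the hedgehog ligand that Schwann cells send to the perineurium, read 11.61, 11.80 and 11.66. Scn7a, a sodium channel relative of non-myelinating Schwann cells, read 12.10, 12.23 and 12.02. The exception in spread was Fabp7, a brain-type fatty acid-binding protein of glial precursors, which read 10.23, 11.05 and 9.39, a 3.16-fold range with pool 11 the lowest and pool 9 the highest. Among the 63 genes of the 4 Schwann cell lists 2, Hey2 and Fabp7, had a range of at least 1, against 2.23% of all genes.

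Lipid synthesis genes were strong too. All 15 measured of 24 fatty acid and galactolipid genes lay above the median level of all genes, with a list median of 11.48. Ugt8a, which makes the galactocerebroside of myelin, read 12.41, 12.61 and 12.60, and Fa2h, which hydroxylates its fatty acids, read 11.13, 11.60 and 11.36. The 14 measured of 25 cholesterol synthesis genes had a median level of 10.38 and a median range of 0.50. All 14 were highest in pool 9 (32.6% of all genes) and lowest in pool 1 (33.5% of all genes), also after quantile normalisation. Idi1, an isomerase of the pathway, read 10.47, 11.36 and 10.88, and Hmgcs1, an early enzyme, read 11.52, 12.06 and 11.66. The steps from pool 1 had a median of 0.50 in pool 9 and 0.14 in pool 11, and 0 of 14 genes reached a range of 1.

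Fibroblast genes had the highest list median, 11.73, among the lists of cell types. Of 44 genes 28 were measured, and all 28 lay above the median level of all genes. Dcn, for the proteoglycan decorin, had the highest mean of all 9407 genes and read 13.995, 13.756 and 13.945. Fn1, for fibronectin, had a mean of 13.34 ± 0.14. Pdgfra, the receptor that marks nerve fibroblasts, read 11.80, 11.47 and 11.79. Col1a1, Col1a2 and Col3a1 were not analysed here.

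Fibroblast genes differed between pools about as much as the table, with a median range of 0.26 and 0 of 28 reaching 1. Pool 1 was the highest in 25 of 28, against 41.1% of all genes and 57.8% of the 2352 with the highest levels. After quantile normalisation it was the highest in 19 of 28, against 37.6% of all genes. Sfrp1, a secreted Wnt inhibitor, had the largest range and read 12.45, 11.65 and 12.06. In bulk tissue such as this, more cells of a type and more RNA per cell cannot be told apart.

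In the perineurium list 13 of 23 genes were measured, with a median level of 10.48. Cldn1, a tight junction claudin of the perineurial barrier, read 12.60, 11.85 and 12.29, and Slc2a1, its glucose transporter, read 10.84, 10.94 and 10.96. Ptch1 and Gli1, receptor and target of hedgehog signalling, read 12.24, 11.79 and 12.13, and 9.96, 9.61 and 9.94. Pool 9 was the lowest in 8 of 13, against 28.5% of all genes.

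Tendon and small proteoglycan genes were mixed. Aspn, for asporin, read 13.55, 13.25 and 13.48, and Thbs4, a thrombospondin, read 12.79, 12.60 and 12.76, but the tendon factor Scx lay at 8.35 ± 0.14. Kera, for keratocan, read 10.40, 9.44 and 9.78. Of 12 measured cartilage and bone genes 7 lay above the receptor genes' 95th percentile, against 80.6% of all genes. They were led by Sox9 at a mean of 9.93, with Col2a1 at 9.55 and Acan at 7.62.

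Most endothelial genes were highest in pool 1. All 32 measured of 39 lay above the receptor genes' 95th percentile, as did 80.6% of all genes, with a median level of 9.44. Cdh5, for the cadherin of endothelial junctions, read 12.51, 12.02 and 12.12. Pecam1, an adhesion molecule of the same junctions, read 11.11, 10.67 and 10.57, and Kdr, a receptor for VEGF, read 10.30, 9.77 and 9.82. Pool 1 was the highest in 29 of 32, against 41.1% of all genes, and in 28 after quantile normalisation, against 37.6%.

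Most of these endothelial differences were small, with a median of -0.28 for pool 9 and -0.33 for pool 11 relative to pool 1. The range reached 1 in 2 of 32 genes (0 without pool 1 and 0 without pool 11), against 2.23% of all genes. They were Vwf, for von Willebrand factor (9.74, 8.92 and 8.50), and Flt4, a receptor of lymphatic growth factors (8.69, 8.15 and 7.55). All 7 measured lymphatic genes were highest in pool 1, as were 41.1% of all genes. Mmrn1, a secreted protein of lymphatic endothelium, read 9.03, 6.99 and 6.23, below the receptor genes' 95th percentile of 7.37 in pools 9 and 11. By contrast Lyve1, a hyaluronan receptor of lymphatic vessels and of some macrophages, read 11.49, 11.35 and 11.31.

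Mural cell genes separated into even and uneven members. Acta2, Myh11, Tagln and Cnn1, which build the contractile apparatus of smooth muscle, were higher in pool 1. Acta2 read 12.47, 11.39 and 11.13, Myh11 read 10.32, 9.29 and 8.47, Tagln read 10.36, 9.00 and 8.53, and Cnn1 read 9.32, 7.72 and 7.60. These are ranges of 2.54-fold, 3.61-fold, 3.55-fold and 3.30-fold.

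Genes shared with pericytes ranged from even to uneven. Pdgfrb, the receptor that recruits pericytes, read 11.55, 11.33 and 11.41, Cspg4, for the NG2 proteoglycan, read 10.26, 10.16 and 10.09, and Abcc9, a potassium channel subunit, read 10.81, 10.67 and 10.52. Notch3, a receptor of mural cells, read 9.97, 9.41 and 9.27, and Rgs4, a regulator of G protein signalling, was highest in pool 9 at 7.75, 8.38 and 7.26. Of 21 measured mural genes 7 had a range of at least 1, against 2.23% of all genes. Pool 1 lay above pool 9 by at least 1 in 5 (0.393% of all genes) and above pool 11 in 6 (0.383%). Without pool 1 the count was 1. Outside the lists, Gja5, a connexin of arterial endothelium, read 8.97, 7.60 and 7.06. The microRNA gene Mir145a, known from smooth muscle, read 8.72, 7.46 and 7.54.

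Macrophage genes left an even signal. The 16 measured genes had a median range of 0.18, against 0.25 over all genes. A range of 1 was reached by 0 of them, against 2.23% of all genes. Of the 16 genes 13 lay above the receptor genes' 95th percentile, as did 80.6% of all genes. Cx3cr1, the fractalkine receptor, read 9.32, 9.24 and 9.22, and Lyz2, for lysozyme, read 10.74, 10.74 and 10.84. Of 12 measured mast cell genes 8 lay above that percentile, against 80.6% of all genes, and the lowest mean was 4.73. Among the 8 were the proteases Cpa3 at 12.25, 12.16 and 11.85 and Tpsb2 at 10.44, 10.52 and 10.44. Of 10 measured lymphocyte and granulocyte genes 2 lay above the receptor genes' 95th percentile, against 80.6% of all genes. Pool 1 was the lowest in 9 of these 10, against 33.5% of all genes and 62.5% of the 2352 with the lowest levels. After quantile normalisation it was the lowest in 7 of the 10, against 3505 of all 9407 genes. Red cell genes were lowest in pool 1 in all 7 measured, against 33.5% of all genes. After quantile normalisation 6 were, against 3505 of all 9407 genes. Alas2, the first enzyme of haem synthesis in red cells, read 10.42, 11.34 and 11.22. Of 16 measured fat cell genes 3 had a range of at least 1, against 2.23% of all genes. Among them was Adipoq, for the hormone adiponectin, at 6.29, 7.39 and 7.07, below the receptor genes' 95th percentile in pools 1 and 11.

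Skeletal muscle genes were part of the signal in every pool and had the largest median range of the lists, 1.16. By the gap between pool medians neuron (1.49) and mural genes (1.12) exceeded muscle genes (0.87), as did smaller lists of sex-linked genes (0.99) and muscle microRNA genes (1.00). Of 98 contractile, excitation and metabolic genes 89 were measured, and all 89 lay above the receptor genes' 95th percentile, as did 80.6% of all genes. Acta1, for skeletal muscle actin, read 12.81, 13.88 and 13.83 and was the sixth-highest of all genes by mean. Ckm, for muscle creatine kinase, read 11.88, 13.30 and 13.34. Tnnc2, the fast troponin C, read 10.77, 12.86 and 12.65, a 4.25-fold range. In each of these genes pool 1 was the low one and pools 9 and 11 lay close together.

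Myosin heavy chains, whose forms succeed each other with age, had unlike levels. Myh8, the perinatal form, read 10.51, 12.75 and 12.38, and Myh3, the embryonic form, read 9.86, 10.86 and 10.67. The adult fast forms Myh1 (7.06, 8.31 and 7.75) and Myh4 (7.19, 8.12 and 7.93) lay near the receptor genes' 95th percentile of 7.37. Myh7, the slow form, was nearly even at 9.07, 9.12 and 8.92.

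Over the list, 53 of 89 muscle genes had a range of at least 1, against 2.23% of all genes. Pool 9 stood above pool 1 by at least 1 in 50 (1.51% of all genes) and pool 11 above pool 1 in 45 (0.989%). Between pools 9 and 11, 0 of 89 differed by 1. Without pool 1 the count of 53 was therefore 0. The median step from pool 1 was 1.10 to pool 9 and 1.02 to pool 11. Pool 1 was the lowest in 87 of 89, against 33.5% of all genes. After quantile normalisation it was the lowest in 88, against 3505 of all 9407 genes. Trdn, for triadin at the calcium release channel, had the largest range and read 6.46, 8.92 and 8.73. Even members included Art3, an ectoenzyme also found outside muscle (11.93 ± 0.07), and Musk, the receptor kinase of the neuromuscular junction (8.89 ± 0.11). Among 12 measured muscle precursor genes, 1 had a range of at least 1, Myog, a factor of differentiating muscle cells (7.52, 8.62 and 8.69), while Pax7 of satellite cells read 7.74, 8.09 and 8.14.

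**Figure D3:**
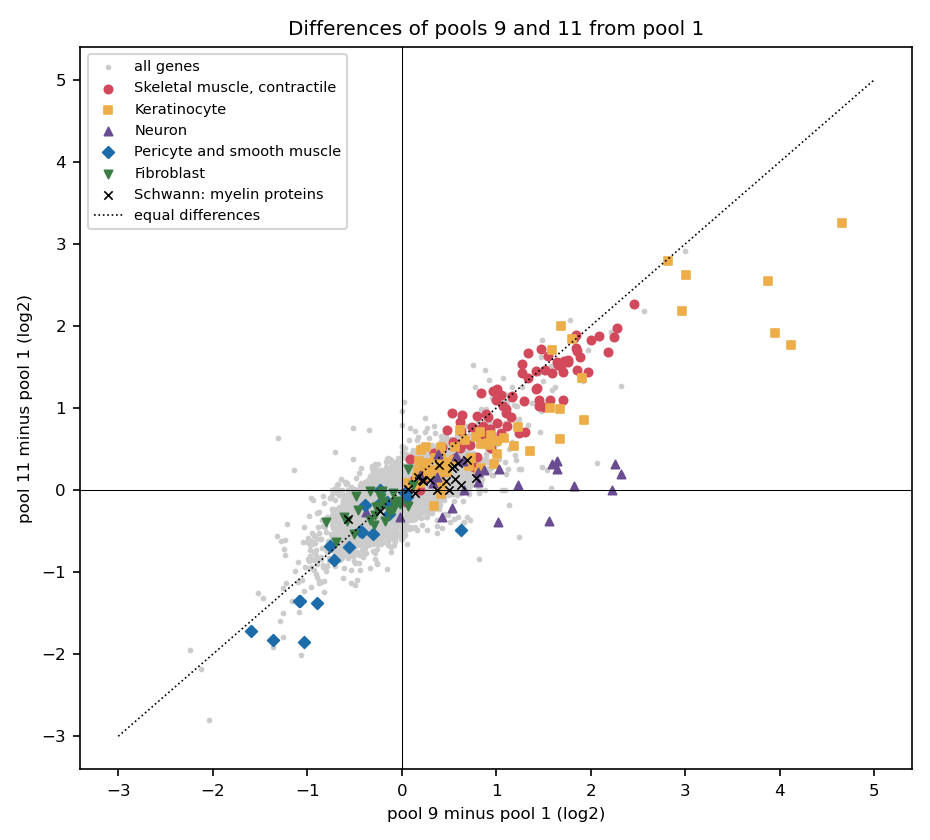
For each gene, pool 9 minus pool 1 (x axis) against pool 11 minus pool 1 (y axis), in log2 units; grey points are all 9407 genes, coloured points the named lists, and the dotted line marks equal differences. The axes share pool 1, so points spread along the line in part for that reason. Muscle genes lie near the line, keratinocyte genes near or below it, neuron genes along the x axis, and smooth muscle genes at the lower left.

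Keratinocyte genes held the largest ranges of array signal in the table. Krt1, a keratin of the upper epidermis, read 7.22, 11.87 and 10.48. Lor, for loricrin of the cornified envelope, read 7.08, 11.19 and 8.84, and Krt10, the partner of Krt1, read 7.89, 11.76 and 10.43 (14.7-fold). Krt5, a keratin of the basal layer, read 7.11, 10.08 and 9.30. In pool 1 Krt1, Lor and Krt5 were below the receptor genes' 95th percentile, so no fold is given for them.

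Of 78 keratinocyte genes 62 were measured. By their mean 37 lay above that percentile, against 80.6% of all genes. A range of at least 1 was found in 21, against 2.23% of all genes. Pool 9 stood above pool 1 by at least 1 in all 21 (1.51% of all genes). Pool 11 stood above pool 1 in 12 (0.989%), and pool 9 above pool 11 in 6 (0.34%). Without pool 1 the count was 6, and without pool 9 it was 12. Cdh1, an epithelial cadherin, did not follow the keratins and read 9.59, 10.01 and 9.54. Hair follicle genes had 0 of 14 with a range of at least 1, with Krt27 at a mean of 7.90. Of 7 measured melanocyte genes 1 did, Tyrp1, an enzyme of melanin synthesis (7.48, 8.61 and 7.30).

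The bases before the start sites of muscle and skin genes were searched for short motifs, and 4 stretches are shown because their genes had the largest ranges of their lists among genes with 1 RefSeq promoter and the motif within the 120 bases shown. Sequences are from RefSeq, build GRCm38.p6, on the strand of the gene, ending at the base before the start site. Capitals mark TATAAA (the core of a TATA box) and CAGCTG (an E-box, the kind of site that myogenic factors such as MyoD bind).
Lor, chr3:92083143-92083262, minus strand: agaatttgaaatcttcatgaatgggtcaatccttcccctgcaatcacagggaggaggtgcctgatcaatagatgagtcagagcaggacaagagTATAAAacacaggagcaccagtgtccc
Hrnr, chr3:93319629-93319748, plus strand: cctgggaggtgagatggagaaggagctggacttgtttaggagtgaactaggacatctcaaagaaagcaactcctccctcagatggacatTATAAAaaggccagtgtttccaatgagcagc
Atp2a1, chr7:126463074-126463193, minus strand: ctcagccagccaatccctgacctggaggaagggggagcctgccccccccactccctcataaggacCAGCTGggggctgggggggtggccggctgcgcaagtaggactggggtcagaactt
Apobec2, chr17:48432729-48432848, minus strand: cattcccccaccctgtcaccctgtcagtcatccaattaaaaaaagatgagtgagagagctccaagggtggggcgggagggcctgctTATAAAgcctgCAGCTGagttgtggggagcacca
TATAAA began 27 bases before the start in Lor and 31 in Hrnr, and CAGCTG began 55 bases before it in Atp2a1 and 23 in Apobec2.

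Both motifs, and the CArG box (CC, a run of A or T of fixed length, then GG), were searched on both strands in the 250 bases before each start. CAGCTG reads the same on either strand, and TATAAA and CAGCTG do not overlap each other. The promoter table matched 70 of 89 muscle genes and 44 of 62 keratinocyte genes. It matched 14 of 21 mural, 15 of 28 fibroblast and 15 of 32 endothelial genes. CAGCTG stood in 36 of 87 promoters of muscle genes (41.4%), 8 of 49 of keratinocyte genes (16.3%), 5 of 21 of neuron genes (23.8%), 3 of 14 of mural genes (21.4%), 2 of 24 of myelin genes (8.33%) and 4271 of all 32851 promoters, and in 12.9% of the promoters of genes on the array. TATAAA stood in 13 of 49 promoters of keratinocyte genes (26.5%), 18 of 87 of muscle genes (20.7%), 2 of 14 of mural genes and 1 of 17 of fibroblast genes (5.88%). It stood in 0 of 21 of neuron genes, in 12.4% of all promoters and in 9.48% of those of genes on the array. The CArG box stood in 7 of 87 promoters of muscle genes (8.05%), 4 of 29 of Schwann cell factors (13.8%) and 1 of 21 of neuron genes. It stood in 0 of 14 promoters of mural, 0 of 24 of myelin and 0 of 17 of fibroblast genes. The same held for 0 of 19 of endothelial and 0 of 49 of keratinocyte genes. Over genes on the array the share was 1.22%, so 0 in lists this short does not show a lack of the box. Promoters of 1 gene can overlap, and a match describes the letters and shows no bound factor. Lor and Hrnr lie in the same cluster of epidermal genes. Hrnr, for hornerin of the cornified layer, read 7.31, 11.26 and 9.22, Atp2a1, the calcium pump of fast muscle, read 9.70, 11.99 and 11.68, and Apobec2, a muscle protein related to cytidine deaminases, read 9.61, 11.47 and 11.31.

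Neuronal genes were high in pool 9. Scn10a, the sodium channel of pain-sensing neurons, read 6.82, 9.05 and 6.82. P2rx3, an ATP receptor of sensory neurons, read 6.89, 9.21 and 7.09, and Nefm, a neurofilament subunit, read 8.04, 10.29 and 8.35. In pools 1 and 11 Scn10a and P2rx3 were below the receptor genes' 95th percentile of 7.37, whereas Nefl, the light neurofilament, was clear in every pool at 10.35, 11.58 and 10.41.

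Of 42 neuronal genes 25 were measured, and pool 9 was the highest in 22, against 32.6% of all genes. After quantile normalisation the count was also 22, against 2984 of all 9407 genes. In 11 the range reached 1, against 2.23% of all genes. Pool 9 stood above pool 1 by at least 1 in 11 (1.51% of all genes) and above pool 11 in 10 (0.34%). Without pool 9 the count was 0. Stmn2, a tubulin-binding protein of growing axons, read 9.60, 11.15 and 9.22, Avil, for advillin of sensory neurons, read 6.83, 8.42 and 7.15, and Slc17a6, a glutamate transporter, read 6.21, 8.02 and 6.25. Of genes known from motor neurons, Chat and Mnx1 lay below that percentile in every pool. Chat, which makes acetylcholine, read 6.91, 7.11 and 7.09, and Mnx1, a transcription factor, read 6.15, 6.52 and 6.30. Scn10a and P2rx3 rose above that percentile in pool 9, and Chat and Mnx1 did not. Smaller steps below it cannot be told from background. Slc18a3, the vesicular acetylcholine transporter, read 7.59, 7.97 and 8.03. Ntrk2, a neurotrophin receptor also carried by glia, was highest in pool 1 (10.36, 9.98 and 10.09). Pool 9 also held the highest myelin and cholesterol values given above, and whether these move with its neuronal, muscle or skin signal was not tested.

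**Figure D4:**
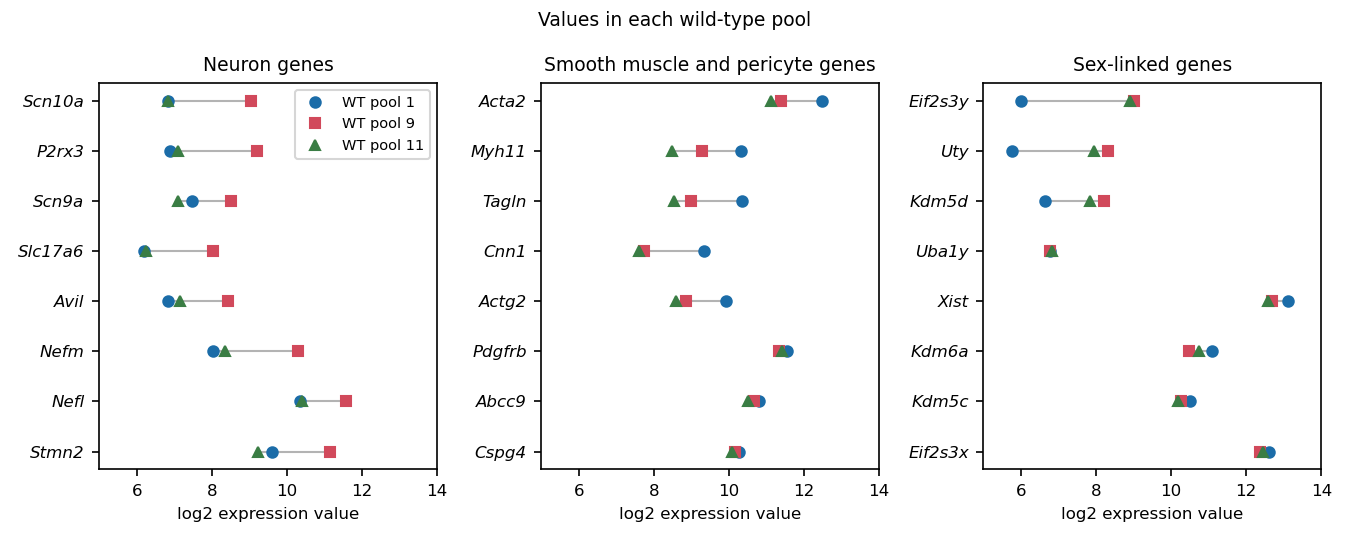
Log2 expression values (x axis) of 8 neuron genes, 8 smooth muscle and pericyte genes and 8 sex-linked genes in WT pools 1, 9 and 11. Pool 9 lies apart to the right in the neuron genes, pool 1 to the right in the upper 5 smooth muscle genes, and pool 1 to the left in Eif2s3y, Uty and Kdm5d.

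Genes of cell division gave higher signals in pool 1 than in the other pools. Of 75 genes of DNA replication and mitosis 67 were measured, with a median level of 9.90. All lay above the receptor genes' 95th percentile, as did 80.6% of all genes. Mki67, a marker of cycling cells, read 12.49, 11.76 and 11.84, Cdk1, the kinase of mitotic entry, read 12.43, 11.82 and 11.93, and Pcna, the clamp of DNA polymerase, read 12.76, 12.60 and 12.15. Pool 1 was the highest in 62 of 67, against 41.1% of all genes, and in 61 after quantile normalisation, against 37.6%. The median step from pool 1 was -0.55 to pool 9 and -0.58 to pool 11. In 4 of 67 the range reached 1, against 2.23% of all genes. These were Cenpf, Esco2, Cenpe and Bub1, from 1.02 to 1.13, and the count was 0 without pool 1 or without pool 11. Top2a, a topoisomerase of dividing cells, did not share the direction and read 7.48, 7.17 and 7.77. It had the lowest mean of the list, near the receptor genes' 95th percentile of 7.37, so its direction may not reflect its RNA.

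Transcripts of the Y chromosome set pool 1 apart. Eif2s3y, a translation factor gene, read 6.01, 9.01 and 8.91, and Uty, a histone demethylase relative, read 5.76, 8.33 and 7.94. Kdm5d, a histone demethylase, read 6.64, 8.22 and 7.85. In pool 1 all 3 lay below the receptor genes' 95th percentile, and Uba1y, a ubiquitin-activating enzyme gene of the same chromosome, lay below it in every pool (6.79, 6.79 and 6.83). Xist, the RNA that silences an X chromosome in females, was strong throughout and highest in pool 1, at 13.11, 12.69 and 12.58. The X-linked genes Eif2s3x, Kdm5c and Kdm6a were also highest in pool 1, as were 41.1% of all genes. Relative to pool 1 they stood at -0.23, -0.25 and -0.62 in pool 9, and at -0.16, -0.32 and -0.35 in pool 11. The sex of the pups is not stated, and muscle, skin, vascular, mitotic and sex-linked values differed together between pool 1 and the others, so their parts in any single difference cannot be told apart.

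Highest by mean over all genes were, in order, Dcn, the histone gene H4c4, the ubiquitin-conjugating enzyme gene Ube2d3, Gjc3, the ribosomal protein gene Rpl9, Acta1, Cnp, the glypican gene Gpc3, the imprinted gene Mest, Aspn, Atpif1, an inhibitor of the mitochondrial ATPase, and Fn1. Their means ran from 13.90 for Dcn to 13.34 for Fn1. Acta1 was the 1 gene among these 12 with a range of at least 1.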

How the data were processed

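Total RNA of 3 wild-type pools was hybridised to 1 Affymetrix array each. The deposited values are on the log2 scale. The submitters' processing notes name RMA, and its settings were not stated. Across the 5 arrays, each of 10361 probe sets had a gap of at least 0.175 between its lowest and its fourth-ranked value, a lower bound on spread, so genes that vary little may be missing and shares refer to this table. Symbols came from the platform annotation of 2016: 9411 probe sets had 1 symbol, 384 had several and were not named, and 566 were not listed. Of the 9411, 9400 matched RefSeq GRCm38.p6 by gene ID and 0 symbols differed. For 4 symbols with several probe sets the one with the highest wild-type mean was used. The values were used as they stand, in Python 3.11.15 with pandas 2.3.3, and the steps were tested on simulated data. Array medians were 9.11, 9.09 and 9.04 in pools 1, 9 and 11. The number of arrays limits the precision. The members and gene lists were chosen with earlier results of these data known. Any listed gene may be named. Outside the lists these are the 12 highest means, the 12 largest ranges and, for each pool alone above or below the others, the 6 largest gaps. Alternatives were median centring, quantile normalisation, averaged probe sets, a filter on level, another fold and leaving out each pool. Counts of the highest and lowest pool under other scalings were added after seeing the data.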

Additional observations from a re-analysis of the deposited data

How the results depend on the processing

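No paired analysis was possible because a single group was described. Counts of genes with a range of at least 1 grew at 1.5-fold to 846 of all genes, 4 myelin, 3 fibroblast, 4 perineurium, 7 endothelial, 34 keratinocyte, 18 neuron and 41 mitotic genes. Median centring and quantile normalisation each left 2 mitotic genes, and moved the gap between the pool medians of Schwann cell factors to 0.135 and 0.131. Keeping genes above the median level left 75 genes, with 0 Schwann cell factors, 0 endothelial, 3 mural, 3 keratinocyte and 3 neuron genes. List medians then became 11.72 for myelin, 11.03 for Schwann cell factors, 10.83 for perineurium, 10.18 for endothelium, 10.53 for mural, 10.64 for muscle, 9.71 for keratinocyte and 9.99 for neuron genes. The gaps between pool medians became 0.67 for myelin, 0.24 for Schwann cell factors, 0.47 for mural, 1.67 for muscle and 3.37 for keratinocyte genes. Fewer genes entered these lists by construction.

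Leaving out 1 pool gave 38 genes (without pool 1) to 179 (without pool 11), and 129 without pool 9. The counts ran from 0 to 1 for Schwann cell factors, 0 to 2 for endothelium, 1 to 6 for mural, 0 (without pool 1) to 50 for muscle, 6 (without pool 1) to 21 for keratinocyte, 0 (without pool 9) to 11 for neuron and 0 to 4 for mitotic genes, and the myelin median from 9.29 to 9.41. With 3 arrays, and no detection calls, low signals cannot be separated from background gene by gene.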

Other observations

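Outside the gene lists, single genes were picked by the size of the gap between 1 pool and the others, so they stand for no gene group. Nr1d1, a nuclear receptor that represses clock genes, read 10.33, 9.19 and 10.58 in pools 1, 9 and 11, and its relative Nr1d2 read 10.63, 9.69 and 10.51. Ciart, a clock repressor picked for its high value in pool 11, read 7.98, 7.47 and 8.74. The chemokine gene Cxcl10 (8.17, 7.21 and 8.07) and the hedgehog-binding gene Hhip (11.76, 10.55 and 11.35) were lowest in pool 9, as were Cbx3 (6.72, 5.41 and 7.35) and 2610005L07Rik (9.23, 7.91 and 8.67). Only 0.0213% of genes, Cbx3 and Nr1d1, had pool 9 alone below by at least 1.

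Several of the genes picked for high values in pool 11 encode small RNAs. The nucleolar RNA genes Snord73b (10.28, 10.30 and 11.35) and Snord87 (9.49, 9.49 and 10.45), the Y RNA gene Rny1 (9.59, 10.33 and 11.11) and the histone-processing RNA gene Rnu7 (5.86, 5.51 and 6.58) were highest there. Pool 11 alone was above by at least 1 in 0.0106% of genes, which is Snord73b. In pool 1 alone, Cxcl13, a chemokine of lymphoid tissue, read 9.01 against 6.77 and 7.06, and Hmcn1, for hemicentin, read 7.48 against 5.36 and 5.30. Slfn8 (6.78, 6.62 and 5.82) and Pgm5 (9.56, 9.07 and 8.41) were lowest in pool 11. Of 21 measured immediate early and heat shock genes 0 had a range of at least 1, and the median range was 0.23. Pool 11 was the highest in 13 of 21, against 20.1% of all genes. After quantile normalisation it was the highest in 16, against 2860 of all 9407 genes. The heat shock gene Hspb1 had the largest range and read 10.92, 11.81 and 11.91, followed by Zfp36, for an RNA-binding protein (9.32, 8.76 and 9.32), while the immediate early gene Fos read 8.23, 8.12 and 8.40.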
